A study of Mus musculus with 6 samples.

Results

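The genes described here encode nuclear subunits of the last steps of mitochondrial respiration: complex III, its electron carrier cytochrome c, complex IV and ATP synthase. They were chosen by symbol, as genes whose single symbol in the platform annotation begins with Uqcr, Cox4 to Cox8 or Atp5, or is Cyc1 or Cycs. That gave 44 genes, of which 38 had a mean intensity of at least 50 in 1 or both title groups, among 10830 genes that did so in all. They were 9 of 9 genes of complex III, Cycs, 11 of 17 of complex IV and 17 of 17 of ATP synthase. Where a gene had several probe sets, the one of highest mean over the 6 arrays stood for it.

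RNA on tagged ribosomes was purified from cortex of Glt25d2 bacTRAP mice, line DU9, in which the Glt25d2 (now Colgalt2) regulatory region drives a tagged ribosomal protein, and was hybridised to 6 Affymetrix mouse arrays. The fluoxetine-titled group is 3 arrays from mice that drank the antidepressant fluoxetine at 0.167 mg/ml in 1% saccharine, and the vehicle-titled group is 3 arrays from mice that drank 1% saccharine alone, both for 15 to 18 days. All mice carried the transgene and had been crossed from FVB onto C57BL/6 for 3 to 5 generations. The labels give neither age nor the number of mice behind each array. The titles number the arrays 1, 2 and 3 in each group and call them biological replicates. The group names follow the title, source and treatment fields. The description field of every sample names the opposite treatment, so if it were the right one each difference between the title groups below would change sign. Transgene lines of this kind label a chosen cell class by its promoter, and RNA of other cells can still be carried along in the purification.

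Colgalt2, the gene that drives the tag, had intensities of 986, 709 and 719 in the fluoxetine-titled arrays, against 891, 828 and 918 in the vehicle-titled arrays (replicate numbers 1, 2 and 3 in this order here and below). It lay above 50 on every array. Of 13 markers of subcortically projecting layer 5 neurons, 12 passed the filter, and their summed intensity lay between 46773 and 58465 in the fluoxetine-titled arrays and between 49778 and 62955 in the vehicle-titled arrays. Much of this sum is 1 marker, Pcp4, with 32186 in fluoxetine array 1 and 37135 in vehicle array 1, the arrays with the highest sums. Over all probe sets kept, the first principal component held 60% of the variance and separated the 2 arrays of number 1 from the other 4. With 6 arrays, precision is limited by their number.

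Complex III passes electrons from ubiquinol to cytochrome c, a small soluble protein of the intermembrane space, and complex IV passes them on to oxygen. Both move protons across the inner membrane. ATP synthase lets the protons flow back through a ring of c subunits, and the turning ring drives ATP formation in its catalytic head. Each complex is built mostly from nuclear genes, with a few subunits made inside the mitochondrion. Neurons spend much of their ATP on ion pumping, and long-range projection neurons hold many mitochondria.

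Most subunit messages were read far above the filter: 17 of 38 members had a mean of 20000 or more. Intensities of different probe sets share no scale, so the values compare arrays and do not rank genes. Uqcrc2, a core protein of complex III, had 27968, 31297 and 25683 in the fluoxetine-titled arrays, against 28713, 29469 and 26695 in the vehicle-titled arrays. Cox6a1, the subunit VIa isoform of most tissues, had 39888, 39106 and 40341 in the fluoxetine-titled arrays, against 39351, 41013 and 44584 in the vehicle-titled arrays. Atp5h, which encodes subunit d of the ATP synthase stalk, had 33988, 33048 and 34359 in the fluoxetine-titled arrays, against 35760.3, 33128 and 35763 in the vehicle-titled arrays. For all 3 genes the title groups overlapped, and the spread between arrays was small beside the level. The catalytic head subunits behaved alike in this respect: Atp5a1 (alpha) had 24369, 28192 and 29259.7 in the fluoxetine-titled arrays, against 25643, 28999 and 28175 in the vehicle-titled arrays. Atp5b (beta) had 24716, 28085 and 24443 in the fluoxetine-titled arrays, against 24189.9, 28161 and 24741 in the vehicle-titled arrays.

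Several subunits of complex IV have isoforms restricted to some tissues. The probe set of Cox4i2, the second form of subunit IV, lay between 6.26 and 8.88 on the 6 arrays. Cox6a2, the heart and muscle form of subunit VIa, passed the filter with 149, 158 and 97.9 in the fluoxetine-titled arrays, against 167, 162 and 102 in the vehicle-titled arrays, and was lowest on both arrays of number 3. Cox7a1, the muscle form of subunit VIIa, had 97, 70.7 and 106 in the fluoxetine-titled arrays, against 87.9, 62.9 and 118 in the vehicle-titled arrays, and was lowest on both arrays of number 2. Neither gene separated the title groups. Besides Cox4i2, the genes that stayed below 50 in both groups were Cox6b2, Cox7b2, Cox7c, Cox8b and Cox8c. Cox8b, the muscle form of subunit VIII, lay between 9.73 and 12.5. Cox6b2, a testis form in mammals, lay between 8.63 and 14.7. Cox7c is a subunit of every complex IV, and its 2 probe sets of single symbol lay between 7.25 and 9.24, a reading of these probe sets rather than of the gene. Cox7b2 and Cox8c reached at most 11.2 and 23.5.

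**Figure D1:**
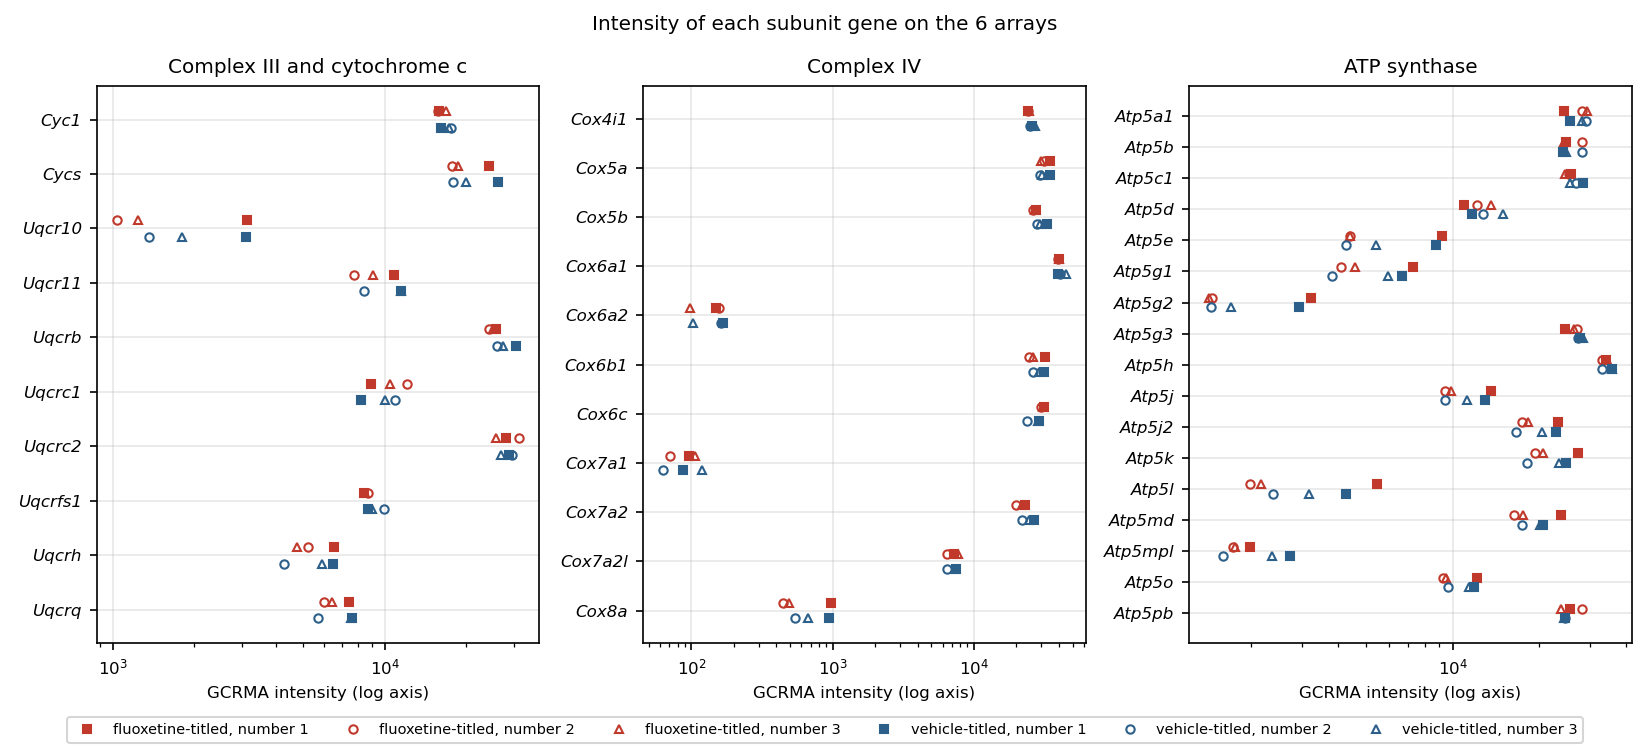
Intensity (GCRMA, linear values on a log axis) of each subunit gene kept, in alphabetical order within each panel, with the fluoxetine-titled arrays (red) above the vehicle-titled arrays (blue). Filled squares are the arrays of number 1, and they lie to the right of the open symbols for Uqcr10, Cox8a, Atp5e, Atp5g2 and Atp5l in both title groups, while for Uqcrc1 and Atp5d they lie to the left.

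Setting the fluoxetine-titled group against the vehicle-titled group asks whether the drug altered the messages on ribosomes of the tagged cells. Subunit genes differed little between the groups, and none was called. In limma, 0 of 38 members passed an adjusted p of 0.05, against 0 of 10830 genes (0%). At an unadjusted p under 0.05 the counts were 0 members and 64 genes (0.591%). With the replicate number as a block they were 0 members and 369 genes (3.41%), and again 0 genes passed the adjusted threshold. For 35 of 38 members the 95% confidence interval of the difference lay within 2-fold either way. The exceptions were Uqcr10, Cox8a and Atp5l, with standard errors of 0.46, 0.34 and 0.41. These errors hold the spread between replicate numbers, which both title groups share, and with the number as a block they were 0.13, 0.13 and 0.18.

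The differences leaned slightly towards lower values in the fluoxetine-titled arrays. Of 38 members, 30 had a negative difference and 8 a positive one, with a median of -0.065 on the log2 scale, against -0.0068 over all genes. The median was -0.077 for complex III (8 of 9 negative), -0.077 for complex IV (7 of 11) and -0.045 for ATP synthase (14 of 17). Under quantile normalization 26 members were negative, since Atp5j2, Atp5md, Uqcrc2 and Uqcrh turned positive, and centring each array on its median turned Atp5b negative. Single arrays moved these medians. Leaving out 1 array at a time moved that of complex III between -0.18 (without vehicle array 2) and -0.0064 (without vehicle array 1). That of complex IV moved between -0.12 and -0.0097, the weakest again without vehicle array 1, and that of ATP synthase between -0.15 (without fluoxetine array 1) and 0.028 (without fluoxetine array 3). The ATP synthase median was also positive without fluoxetine array 2 (0.0092) and without vehicle array 1 (0.016).

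In complex III, Uqcrb had the clearest separation. This small subunit had 25784, 24129.9 and 25114 in the fluoxetine-titled arrays, against 30539.9, 25893 and 27311 in the vehicle-titled arrays, so that the groups did not overlap. Its mean was 25009 ± 832 with fluoxetine by title, against 27914 ± 2382 with vehicle by title (SD, n = 3 each), which is -0.16 ± 0.13 (SE) on the log2 scale, with an adjusted p of 1 in limma. Uqcr10, a small membrane subunit, had the difference farthest from 0, -0.30 ± 0.46, from intensities of 3126, 1035 and 1239 in the fluoxetine-titled arrays, against 3089, 1364 and 1795 in the vehicle-titled arrays. Its groups overlapped, and the number 1 array of each group was far above the other arrays. Without fluoxetine array 2 the difference was 0.0037, and without vehicle array 1 it was 0.022. Uqcr11, another small subunit, had 10847, 7727 and 9041 in the fluoxetine-titled arrays, against 11488, 8411 and 11499.9 in the vehicle-titled arrays. Its difference was -0.18 ± 0.19, or ± 0.11 with the number as a block. It was negative in all 3 pairs, with overlapping groups and an adjusted p of 0.993 in limma with the block. The electron-carrying subunits differed less: -0.077 for Cyc1 (cytochrome c1) and -0.11 for Uqcrfs1 (the Rieske iron-sulfur protein), both negative in all 3 pairs of arrays of equal number. Uqcrc1, a core protein, was the only complex III gene with a positive mean difference (0.11 ± 0.17), positive in all 3 pairs. It was -0.0064 without vehicle array 1 and 0.0057 without fluoxetine array 2. Cycs, cytochrome c itself, had 24265, 17622 and 18679 in the fluoxetine-titled arrays, against 26183, 17833 and 19853 in the vehicle-titled arrays, with a difference of -0.072 ± 0.20.

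In complex IV, 3 genes had title groups that did not overlap, in both directions. Cox5b, a subunit that binds zinc, had 27587, 26166 and 26953 in the fluoxetine-titled arrays, against 32718, 27761 and 29379 in the vehicle-titled arrays (difference -0.15 ± 0.13). Cox4i1, the main form of subunit IV, had 24122, 23972 and 24628 in the fluoxetine-titled arrays, against 25615, 24844 and 27096 in the vehicle-titled arrays (difference -0.092 ± 0.12). Both genes had their 3 fluoxetine-titled values below their 3 vehicle-titled values, but the highest of the fluoxetine-titled and the lowest of the vehicle-titled values lay close together. Cox6c went the other way, with 31477, 29724 and 30938 in the fluoxetine-titled arrays, against 29124, 23938 and 28455 in the vehicle-titled arrays, a difference of 0.18 ± 0.13. Its lowest array was vehicle array 2. Cox7a2, the common form of subunit VIIa, had 23035, 20014 and 21976 in the fluoxetine-titled arrays, against 26426, 21756 and 24687 in the vehicle-titled arrays. It was lower in all 3 pairs (-0.20, -0.12 and -0.17) although the groups overlapped. Cox8a, the common form of subunit VIII, had 979.7, 445 and 489.7 in the fluoxetine-titled arrays, against 944, 539 and 671 in the vehicle-titled arrays, a difference of -0.23 ± 0.34, or ± 0.13 with the block. Cox7a2l, which encodes a factor that joins complexes III and IV into supercomplexes, had a difference of 0.0087 ± 0.14, and Cox6b1 and Cox6a2 had -0.077 ± 0.15 and -0.089 ± 0.26.

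In ATP synthase, Atp5g3 was the only gene whose title groups did not overlap. It is 1 of 3 genes that encode the c subunit of the rotor ring, and it had 24500.0, 27143 and 26477 in the fluoxetine-titled arrays, against 27786, 27265 and 28445 in the vehicle-titled arrays (difference -0.10 ± 0.12). The other c subunit genes, Atp5g1 and Atp5g2, had differences of -0.051 ± 0.29 and -0.034 ± 0.39, with overlapping groups. Atp5mpl, a small membrane protein of the complex, had 1985, 1731 and 1758 in the fluoxetine-titled arrays, against 2719.7, 1597 and 2356 in the vehicle-titled arrays, a difference of -0.25 ± 0.21. It was low on all fluoxetine-titled arrays and on vehicle array 2. Atp5l, subunit g of the membrane part, had 5482, 1972 and 2166 in the fluoxetine-titled arrays, against 4257, 2382 and 3159.8 in the vehicle-titled arrays. Its pair differences of 0.36, -0.27 and -0.54 ran in both directions. Atp5d, central stalk subunit delta, had 10980.0, 12146 and 13630.4 in the fluoxetine-titled arrays, against 11713, 12717 and 15001 in the vehicle-titled arrays. It was lower in each pair (-0.093, -0.066 and -0.14), while the groups overlapped. The catalytic head genes Atp5a1 and Atp5b had -0.02 and 0.0032, and Atp5c1 (gamma of the central stalk) had -0.095. The remaining ATP synthase genes lay between -0.091 (Atp5o, the stalk subunit that confers oligomycin sensitivity) and 0.075 (Atp5pb, stalk subunit b).

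Counted over all complexes, all 3 fluoxetine-titled values lay below all 3 vehicle-titled values for 4 of 38 members (Uqcrb, Cox4i1, Cox5b and Atp5g3), against 1.98% of all genes. They lay above them for 1 member, Cox6c, against 1.63% of all genes. The chosen probe sets of these 5 genes all had a mean of 20000 or more. Among the 17 members at that level, 4 lay below and 1 above. Among the 135 genes of the whole table at that level, 10 lay below and 2 above. The part of brightness in these counts was not tested. Within pairs of equal number, 13 members were lower in all 3, against 13.1% of all genes, and 2, Uqcrc1 and Cox6c, were higher in all 3, against 10.9% of all genes. Of the genes at 20000 or more, 37 of 135 were lower in all pairs, and of the members at that level 8 of 17 were.

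The sign of the title group difference often depended on the probe set. It differed between the brightest and the dimmest probe set for 10 of the 21 members with several kept: Uqcrb, Cycs, Cox5a, Cox6c, Cox7a2l, Atp5d, Atp5g1, Atp5k, Atp5o and Atp5pb. In these genes, Uqcrb and Cox6c apart, the dimmest gave values between -0.12 (Atp5k) and 0.13 (Cycs). Some signs rest on values near 0: 0.0036 by the dimmest for Atp5d, and 0.0087 and 0.012 by the brightest for Cox7a2l and Atp5k. The dimmest probe sets of Cycs and Atp5g1 had means of 140 and 93.9, against 20739 and 5405 by the brightest. The brighter probe sets of Cycs gave -0.072, -0.054 and -0.026. The second probe set of Uqcrb had 9319, 5535 and 5637 in the fluoxetine-titled arrays, against 8362, 4358 and 5893 in the vehicle-titled arrays, which gave 0.15 on the log2 scale where the brighter one gave -0.16. That of Cox6c had 14269, 12162 and 13024 in the fluoxetine-titled arrays, against 17115, 11594 and 15667 in the vehicle-titled arrays, -0.15 in place of 0.18. So for both genes the probe set that separated the groups and the dimmer probe set pointed in opposite directions, and the dimmer ones overlapped between groups. The 4 probe sets of Cox5b that passed the filter had negative differences, from -0.15 to -0.088. Cox4i1 and Atp5g3 had 1 probe set each.

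The lean towards lower values was deepest in pair 3 for complex IV and ATP synthase, while in complex III pair 2 was nearly as low. In pair 3, 34 of 38 members were lower in the fluoxetine-titled array, against 19 in pair 1 and 22 in pair 2. The member medians were -0.0031, -0.012 and -0.14 in pairs 1, 2 and 3, against 0.00069, -0.025 and -0.00081 over all genes. The complex III medians were -0.031, -0.10 and -0.12 in pairs 1, 2 and 3, and leaving out both arrays of number 3 gave -0.095 in place of -0.077. Those of complex IV were -0.014, -0.051 and -0.14. Those of ATP synthase were 0.035, -0.0035 and -0.18, with 16 of 17 genes lower in pair 3. The genes farthest below 0 in pair 3 were Atp5l (-0.54), Uqcr10 (-0.54), Cox8a (-0.45), Atp5mpl (-0.42) and Atp5g1 (-0.38), named after their values were seen. In pair 1 the same 5 genes had 0.36, 0.017, 0.053, -0.45 and 0.12, and in pair 2 -0.27, -0.40, -0.28, 0.12 and 0.10. Atp5l, Uqcr10 and Cox8a were thus lower in pairs 2 and 3 and higher in pair 1, while Atp5mpl was lower in pairs 1 and 3.

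**Figure D2:**
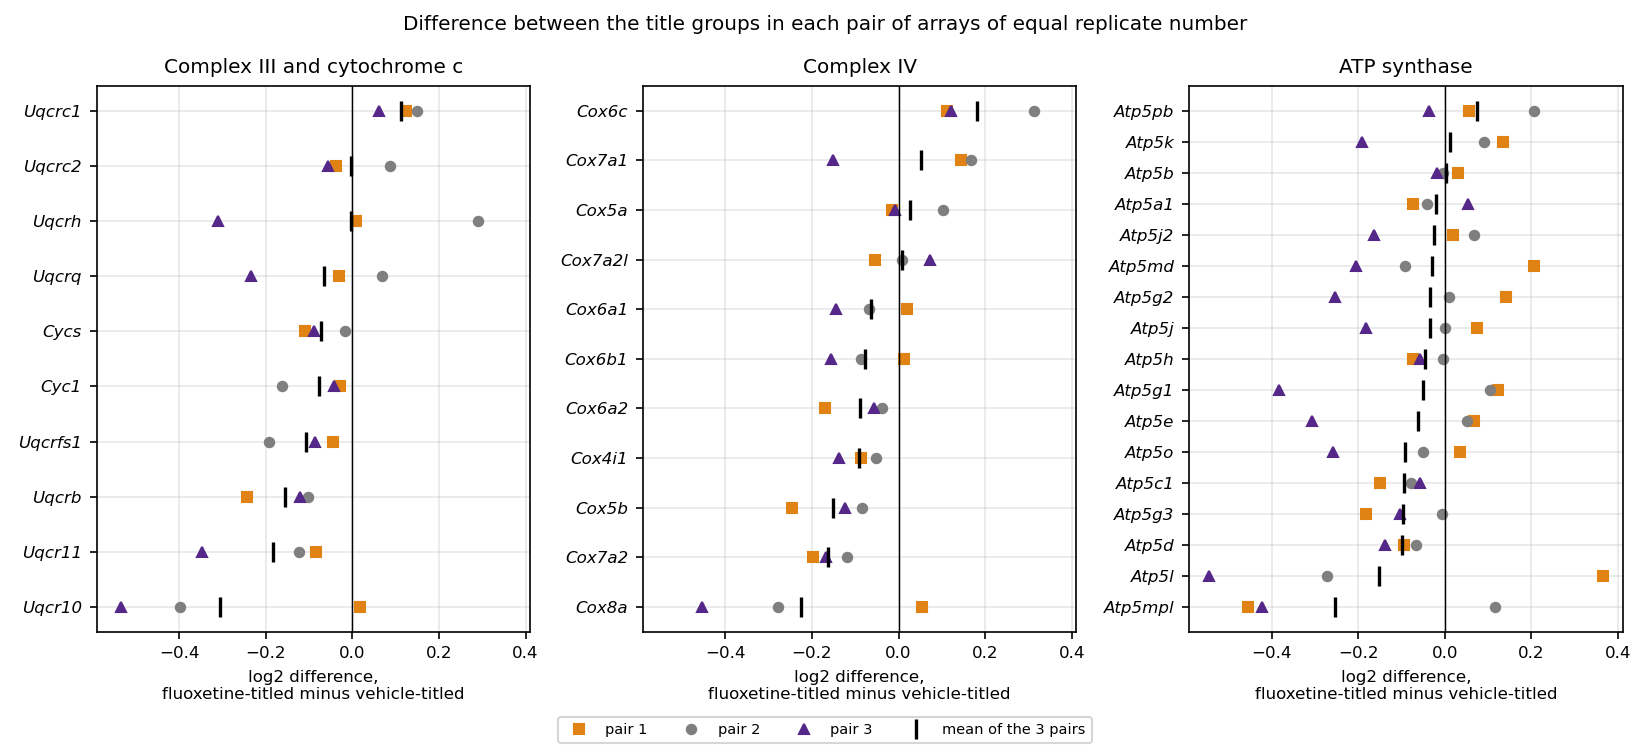
Log2 difference (fluoxetine-titled minus vehicle-titled) of each subunit gene in pairs 1, 2 and 3 (square, circle and triangle) and the mean of the 3 pairs (bar), sorted by that mean. The triangles of pair 3 lie left of 0 for 34 of 38 genes, while squares and circles fall on both sides.

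Vehicle array 3, the vehicle-titled array of that pair, also had the lowest summed level of 4 of 5 lists of markers of other cell types. In pair 3, the 14 of 15 astrocyte markers kept had a median difference of 0.78, and their summed intensity lay between 28383 and 36473 in the fluoxetine-titled arrays and between 19851 and 35329 in the vehicle-titled arrays, lowest on vehicle array 3. Oligodendrocyte markers (10 of 11) had a pair 3 median of 0.49 and summed intensities between 27393 and 32984 in the fluoxetine-titled arrays and between 19873 and 35806 in the vehicle-titled arrays. Microglia markers (8 of 11) had 0.79, and summed intensities between 2489 and 3685 in the fluoxetine-titled arrays and between 1459 and 3878 in the vehicle-titled arrays. Interneuron markers (9 of 10) had 0.40, with sums between 24130.2 and 29316 in the fluoxetine-titled arrays and between 19774 and 28617 in the vehicle-titled arrays. In each of these 4 lists the lowest of the 6 sums was that of vehicle array 3. Each sum leans on its brightest marker, whose mean was 14153 for astrocytes, 17429 for oligodendrocytes, 1134.5 for microglia and 17206.5 for interneurons. Endothelial and mural markers (8 of 12) had 0.18. Their sums lay between 2211 and 2649 in the fluoxetine-titled arrays and between 1694 and 2100.0 in the vehicle-titled arrays, without overlap. In this list pair 3 had the smallest median, with 0.30 in pair 1 and 0.48 in pair 2. All 8 had a positive title group difference, with a median of 0.31 and 0 called. In pair 3 the layer 5 markers had a median of -0.14, on the same side as the subunit genes. No marker was listed at 0, and the part of other cell types in the pair 3 difference was not tested. In this purified RNA of many cells, fewer cells of a type, less RNA per cell and less carry-over in purification cannot be told apart.

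The 2 arrays of number 1 differed from the other 4 in many genes, 641 called higher and 743 lower of 10830. What a number stands for is not in the labels, and the contrast was chosen knowing that these arrays stood apart over all genes, so its calls describe these arrays. The subunit genes called were all higher on the arrays of number 1, by up to 2.34-fold. They were small subunits of the 3 complexes, a c subunit gene and cytochrome c. The complex III core proteins Uqcrc1 and Uqcrc2 and the head subunits Atp5a1 and Atp5b were not called. Nor were other small subunits, among them Uqcrh, Uqcr11 and Uqcrq. In limma, with the title group as a term, 6 of 38 members passed an adjusted p of 0.05 as higher (Uqcr10, Cycs, Cox8a, Atp5e, Atp5g2 and Atp5l), against 5.92% of all genes. As lower, 0 members passed, against 6.86% of all genes. At an unadjusted p under 0.05 there were 12 of 38 members (31.6%), of which Uqcrc1 alone was lower, against 30.2% of all genes, so that this count is near the background. Both arrays of number 1 lay above the other 4 for 15 members, against 24.4% of all genes, and below them for 3, against 19.9% of all genes. The median difference was 0.13 for complex III, 0.13 for complex IV and 0.32 for ATP synthase, against 0.037 over all genes. Leaving out 1 array gave between 0.067 (without vehicle array 1) and 0.20 (without fluoxetine array 1) for complex III and between 0.10 (without vehicle array 2) and 0.19 (without fluoxetine array 1) for complex IV. For ATP synthase it gave between 0.18 (without fluoxetine array 1) and 0.38 (without vehicle array 3), so the order of the complexes rests on fluoxetine array 1. The calls rest on very few arrays: without fluoxetine array 1 they were 0 in place of 6, without vehicle array 1 3, and without vehicle array 3 10. Over all genes they were 77 without fluoxetine array 1, 189 without vehicle array 1, 834 without fluoxetine array 2 and 604 without fluoxetine array 3.

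Among the genes of complex III, Uqcr10 had 3126 and 3089 on the number 1 arrays (fluoxetine-titled, then vehicle-titled), against 1035, 1239, 1364 and 1795 on the other 4, in the order fluoxetine 2 and 3 and vehicle 2 and 3. The log2 difference was 1.22 ± 0.18 (SE), with an adjusted p of 0.00575 in limma, and it was 1.47 within the fluoxetine-titled and 0.98 within the vehicle-titled arrays. The small subunits Uqcrh (the acidic hinge protein), Uqcr11 and Uqcrq had differences of 0.37 ± 0.16, 0.30 ± 0.16 and 0.24 ± 0.14, none of which passed. Uqcrc1, a large core protein, ran the other way. It had 8922 and 8179.6 on the number 1 arrays, against 12056, 10486, 10877 and 10051 on the other 4, a difference of -0.34 ± 0.12 that did not pass (adjusted p = 0.0982). Cyc1, Uqcrfs1 and Uqcrc2 lay near 0, at -0.073 ± 0.11, -0.079 ± 0.12 and 0.0071 ± 0.13. Cycs had 24265 and 26183 on the number 1 arrays, against 17622, 18679, 17833 and 19853 on the other 4, a difference of 0.45 ± 0.12 (adjusted p = 0.0425). The next 2 bright probe sets of Cycs gave 0.44 and 0.46, and a dim one 0.087.

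In complex IV, Cox8a had 979.7 and 944 on the number 1 arrays, against 445, 489.7, 539 and 671 on the other 4, a difference of 0.86 ± 0.16 (adjusted p = 0.0123), and its second probe set gave 1.00. The next by size was Cox6a2, with 0.32 ± 0.24, whose number 1 arrays had 149 and 167 on the number 1 arrays, against 158, 97.9, 162 and 102 on the other 4, with overlap. Cox6b1, a small subunit that faces the intermembrane space, had 31829.7 and 31570.4 on the number 1 arrays, against 24522, 26094, 26035 and 29101 on the other 4, a difference of 0.26 ± 0.12 with no overlap. Cox4i1 (-0.015), Cox6a1 (-0.057) and Cox7a2l (0.081) did not pass and lay within the array spread.

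In ATP synthase the called genes were found in the central stalk, the rotor ring and the membrane part. Atp5e, the small epsilon subunit of the central stalk, had a difference of 0.96 ± 0.14 (adjusted p = 0.00596 in limma). It had 9159.6 and 8743 on the number 1 arrays, against 4410.0, 4390.4, 4255 and 5426 on the other 4. No other subunit of the central stalk or the head was called. Atp5a1 had -0.20 ± 0.11, Atp5b -0.10 ± 0.13, Atp5c1 0.08 ± 0.11 and Atp5d -0.23 ± 0.13. Atp5a1 and Atp5d were lower on both number 1 arrays than on any of the other 4. Of the c subunit genes, Atp5g2 had 3229.8 and 2929.9 on the number 1 arrays, against 1454, 1427, 1443 and 1701 on the other 4, a difference of 1.03 ± 0.13 (adjusted p = 0.00364). Atp5g1 had 7281 and 6686 on the number 1 arrays, against 4085, 4595, 3797 and 5988 on the other 4, a difference of 0.62 ± 0.19 that did not pass (adjusted p = 0.0694). Atp5g3, read by a brighter probe set, had -0.067 ± 0.11, so of 3 genes that encode the same mature subunit 1 was called. Atp5l had 5482 and 4257 on the number 1 arrays, against 1972, 2166, 2382 and 3159.8 on the other 4, a difference of 1.02 ± 0.20 (adjusted p = 0.0174). It was 1.41 within the fluoxetine-titled and 0.63 within the vehicle-titled arrays, and 0.63 without fluoxetine array 1. Other membrane and stalk subunits, Atp5j2 (f), Atp5k (e), Atp5md, Atp5j (F6) and Atp5o, had 0.35, 0.36, 0.32, 0.42 and 0.28, and for these 5 both number 1 arrays lay above the other 4 without passing the threshold. For Uqcr10, Cycs, Cox8a, Atp5e, Atp5g1, Atp5g2 and Atp5l, vehicle array 3 lay between the number 1 arrays and the remaining 3. A test of whether the number 1 difference itself differed between the title groups gave no call (limma interaction, smallest adjusted p over all genes 1, and 1 member and 276 genes at an unadjusted p under 0.05).

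**Figure D3:**
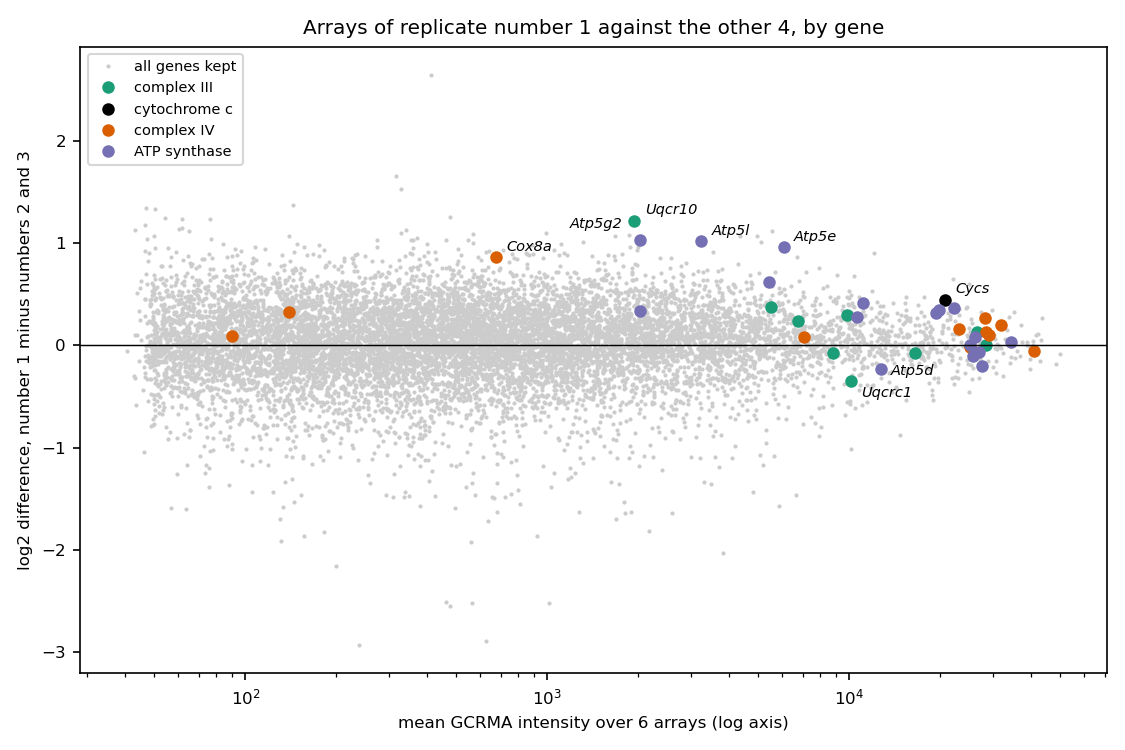
Log2 difference of the arrays of number 1 from the other 4 (vertical) by mean intensity over the 6 arrays (log axis), for all 10830 genes (grey) and the subunit genes (coloured by complex). Subunit genes under 20000 reach 1.22 (Uqcr10), and those at 20000 or more reach 0.45 (Cycs).

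The size of the number 1 difference went with the brightness of the probe set. Members at a mean of 20000 or more had a median difference of 0.08 (n = 17) and members below it 0.32 (n = 21). Their median absolute differences were 0.11 and 0.34. Over all genes the median absolute difference was 0.12 at 20000 or more and 0.22 below it. Probe sets of the same gene often showed it too, though not always. Cox6a1 had 39888 and 39351 on the number 1 arrays, against 39106, 40341, 41013 and 44584 on the other 4, by its brightest probe set, -0.057 on the log2 scale. Its dimmer probe set had 18521 and 18117 on the number 1 arrays, against 11160.1, 10269.8, 11885 and 13574 on the other 4, a difference of 0.65. So the array groups overlapped by the first probe set and stood apart by the second. Uqcrb gave 0.13 by the brightest and 0.73 by the dimmer probe set, Cox7a2 0.16 and 0.54, and Cox6b1 0.26 and 0.56. For Atp5d the sign differed, with -0.23 and 0.27, although its probe sets were of similar brightness (means 12698 and 10296). Of the 21 members with several probe sets kept, the dimmest gave the higher value for 15, with medians of 0.34 by the dimmest and 0.16 by the brightest. It gave the lower value for Atp5g1 (0.13, against 0.62 by the brightest), Atp5k (0.15 against 0.36), Uqcr10, Cycs, Cox5a and Uqcrc2. For Atp5g1 and Cycs the dimmest had means of only 93.9 and 140, near the filter, against 5405 and 20739 by the brightest. Read by the dimmest probe set kept, a choice made after seeing the data, 10 members passed in place of 6, while over all genes 1639 of 10830 passed in place of 1384. Uqcr10 was not among them (0.84), and neither was Cycs. The part of brightness in the number 1 difference was not tested.

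**Figure D4:**
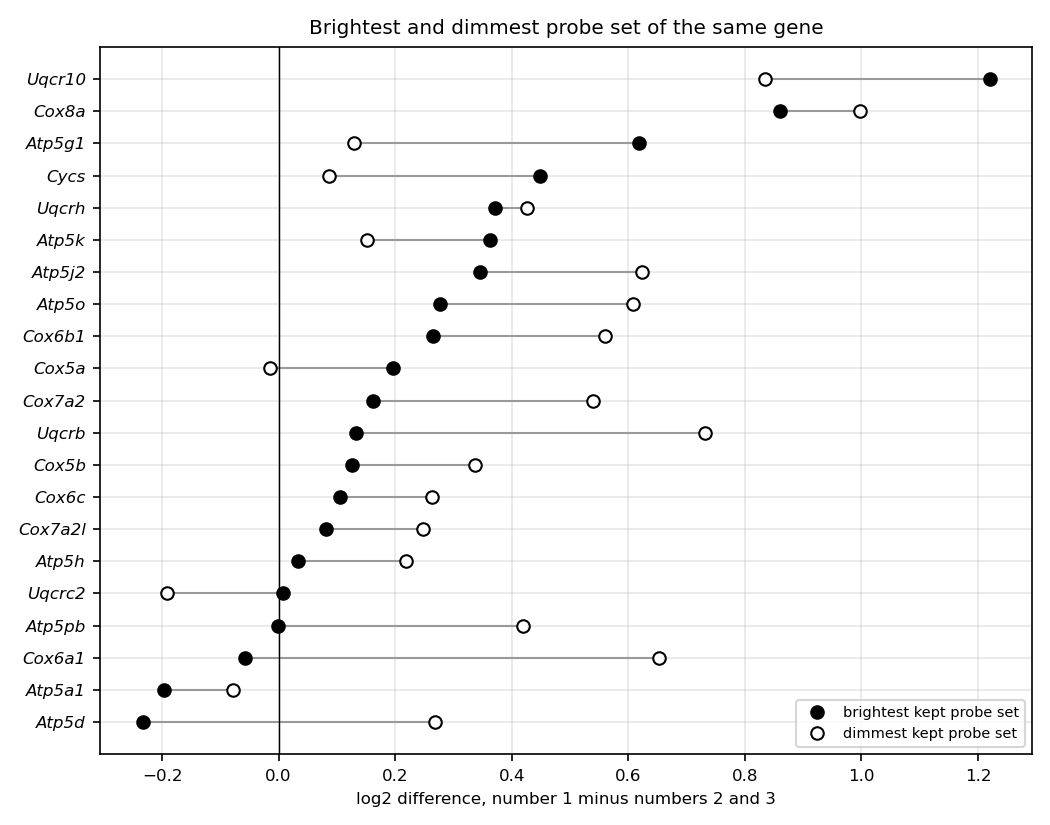
Log2 difference of the arrays of number 1 from the other 4, by the brightest (filled) and the dimmest (open) kept probe set of each subunit gene with several, sorted by the filled circles. The open circle lies to the right for 15 of 21 genes, farthest for Cox6a1 and Uqcrb.

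Promoter sequence is shown for the 6 genes called higher on number 1 arrays and for Uqcrc1, the member with the lowest difference, so that the 2 ends of that contrast can be read side by side. RefSeq promoters (build GRCm38.p6, 250 bases before to 50 after the start site) matched 29 of 38 members, the others being Cyc1, Uqcrb, Uqcrc2, Uqcrq, Cox4i1, Cox6a2, Cox6c, Atp5a1 and Atp5mpl. Each line gives 100 bases, 5′ to 3′ on the gene's strand. Capitals mark matches to the letters searched for NRF1 (GCGC, any 2 bases, GCGC) and for GABPA and related ETS factors (CCGGAAG, read on either strand), which are known activators of respiratory genes. The stretches end at the base before the start site, except those of Atp5e, from 102 to 3 bases before it, and Atp5l, from 212 to 113 bases before it.

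Uqcr10, chr11:4704345-4704444, minus strand: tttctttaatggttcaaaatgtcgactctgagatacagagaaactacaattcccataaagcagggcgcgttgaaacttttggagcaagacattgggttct

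Atp5g2, chr15:102671048-102671147, minus strand: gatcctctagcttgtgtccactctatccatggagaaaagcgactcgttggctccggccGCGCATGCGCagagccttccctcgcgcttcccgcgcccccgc

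Atp5l, chr9:44920855-44920954, minus strand: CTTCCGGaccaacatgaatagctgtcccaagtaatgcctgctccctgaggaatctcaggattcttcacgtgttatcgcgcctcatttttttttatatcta

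Atp5e, chr2:174464104-174464203, minus strand: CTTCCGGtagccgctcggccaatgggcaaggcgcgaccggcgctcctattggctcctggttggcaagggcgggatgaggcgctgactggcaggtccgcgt

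Cox8a, chr19:7217617-7217716, minus strand: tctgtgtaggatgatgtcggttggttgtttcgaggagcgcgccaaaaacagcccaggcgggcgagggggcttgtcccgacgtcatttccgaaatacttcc

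Cycs, chr6:50566570-50566669, minus strand: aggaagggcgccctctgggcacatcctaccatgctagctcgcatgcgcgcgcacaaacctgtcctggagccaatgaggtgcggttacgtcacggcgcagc

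Uqcrc1, chr9:108936548-108936647, plus strand: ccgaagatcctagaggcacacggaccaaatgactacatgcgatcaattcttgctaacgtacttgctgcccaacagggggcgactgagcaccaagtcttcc

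Atp5g2 held the NRF1 letters before its start site, and Atp5e and Atp5l held the ETS letters there. Uqcr10, with the largest difference, and Cycs held no exact match to either in their whole windows. The ETS matches of Cox8a lay across and after its start site, and the NRF1 matches of Uqcrc1 after it. Over the whole windows and both strands, the NRF1 letters were found in 8 of 32 member promoters (25%) and 6.23% of all 32851. The ETS letters were found in 11 (34.4%) and 8.86% of all, and the YY1 letters AAGATGG in 3 (9.38%) and 6.34%. Genes with the NRF1 letters were found at both ends of the contrast: Atp5g2 had 1.03, Atp5k 0.36, Cox6a1 -0.057 and Uqcrc1 -0.34. A match describes the sequence and says nothing of binding. Only exact letters were searched, so near matches were not counted and a window without them may still hold a site.

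Other genes of the pathway were read from lists by name. Atpif1, whose product blocks ATP synthase from running backwards, lies outside the symbol rule and had 31784 and 32642 on the number 1 arrays, against 21793, 20933, 18467 and 24070.1 on the other 4. That difference of 0.60 ± 0.14 passed (adjusted p = 0.029 in limma), and its title group difference of -0.00031 ± 0.25 did not. Between title groups, 0 genes of any of these lists passed. The median difference was -0.085 for assembly factors of the 3 complexes (30 of 35 kept, 20 negative). It was -0.09 for complex I subunits (34 of 36 kept, 29 negative) and -0.046 for the 4 genes of complex II. The 9 carriers and pores, through which phosphate, nucleotides and other metabolites cross the mitochondrial membranes, had -0.049 and were all negative, and the 12 regulators of respiratory genes had 0.0022. Sco1, a copper chaperone of complex IV, had 95.2, 92.3 and 85.2 in the fluoxetine-titled arrays, against 82.8, 70 and 66 in the vehicle-titled arrays, with no overlap and a difference of 0.32 ± 0.14. Cox10, an enzyme on the path to heme A of complex IV, was lower in the fluoxetine-titled arrays without overlap (-0.28 ± 0.13). It had 478, 507 and 476 there, against 574, 647 and 557 in the vehicle-titled arrays. Both had an adjusted p of 1 in limma.

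Against the other 4, number 1 arrays were higher for 3 of 34 complex I subunits, 4 of 30 assembly factors and 1 of 4 complex II genes. These calls are at the adjusted threshold, which 5.92% of all genes passed as higher and 6.86% as lower. The medians of the 3 lists were 0.18, 0.23 and 0.24. The called genes were Ndufa6, Ndufa12 and Ndufb2, then Cox15, Cox16, Coa6 and Pet100, then Sdhd, named here because they were called. No gene of these 3 lists was called lower. Ndufa6, a small complex I subunit, had 7857 and 7408 on the number 1 arrays, against 3257, 3854, 3447 and 4755 on the other 4 (1.01 ± 0.17, adjusted p = 0.00965 in limma). Cox15, an enzyme of heme A synthesis, had 969 and 1119 on the number 1 arrays, against 598, 566, 568 and 460.4 on the other 4 (0.93 ± 0.15, adjusted p = 0.00828 in limma). The carriers had a median of 0.021 with 0 calls. Regulators had -0.065, with 1 called higher and 2 lower. The 3 were Tfb1m, Tfb2m and Ppargc1b, a coactivator. Tfb1m, which methylates mitochondrial ribosomal RNA, was higher, with 321 and 338 on the number 1 arrays, against 213, 176, 227 and 222 on the other 4, and Tfb2m, a mitochondrial transcription factor, lower, with 839.8 and 831 on the number 1 arrays, against 1095, 1203, 1124 and 1401 on the other 4 (0.66 and -0.52, adjusted p = 0.0166 and 0.0423 in limma). Among markers of other cells, the number 1 medians were 0.10 for astrocytes, 0.045 for oligodendrocytes, 0.52 for microglia, 0.15 for interneurons and 0.25 for endothelial and mural cells, with 0.17 for layer 5 neurons. For 3 lists the sign differed between the title groups: -0.16 within the fluoxetine-titled and 0.35 within the vehicle-titled arrays for astrocytes, -0.12 and 0.24 for oligodendrocytes, and -0.13 and 0.29 for interneurons. Slc1a2, an astrocyte glutamate transporter, was the only marker called, and it was lower, at -0.88 ± 0.20 on the log2 scale (adjusted p = 0.0274 in limma). The part of other cell types in the number 1 difference was not tested.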

How the data were processed

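The data are 6 Affymetrix arrays of cortical TRAP RNA, 3 per title group, from 15 ng of RNA amplified in 2 cycles and labelled with biotin, per the labels' protocols. The values the authors deposited are linear intensities, 1 for each probe set on each array. Per the submitters' processing notes they come from GCRMA, with version and settings not given in the sources used here. GCRMA corrects background from probe sequence and normalizes between arrays. Of 45101 probe sets, 64 controls were left out and 19073 kept, where the mean of at least 1 title group reached 50, a reading of the submitters' advice. 34945 had 1 symbol in the platform annotation, 932 several and 9160 none. All 38 members matched RefSeq (GRCm38.p6) by Entrez identifier, which changed 0 symbols.

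Models were fitted to log2 values by limma's lmFit and eBayes, version 3.58.1 in R 4.3.3, two-sided, Benjamini-Hochberg over all probe sets kept, and called at an adjusted p of 0.05. Title groups were compared over all arrays, and arrays of number 1 with the other 4 with the title group as a term. Counts of all genes use 1 probe set per gene. The fits were tested on simulated data whose noise left out the spread between replicate numbers. That test therefore does not cover the title group fit without the block as these data set it. Arrays were paired by the replicate numbers of the titles. Deviations from the group means correlated at 0.74, 0.60 and 0.50 for equal numbers. For unequal numbers they correlated between -0.59 and 0.26, positive for fluoxetine array 3 with vehicle array 2 and fluoxetine array 2 with vehicle array 3. The distance of number 1 raises the values among numbers 2 and 3, so these do not by themselves establish their pairing. The fit without the block is reported. Arrays correlated between 0.973 and 0.994 over the probe sets kept, and none was taken for a duplicate. Members and lists were chosen with earlier results of these data known. Genes were named by rule: per complex the brightest 2, the 3 largest differences in each comparison, those whose title groups did not overlap, and fixed isoforms and core subunits, and per list the 2 largest differences, of which a few are given. Other settings tried were normalization, centring, filter, floor, probe set choice and arrays left out.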

Additional observations from a re-analysis of the deposited data

How the results depend on the processing

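With the replicate number as a block, 0 genes and 0 members passed between title groups, as without it, and the medians were the same because the pairs are balanced. The block changed no call. Between title groups no alternative called a gene. The complex III median was -0.13 without both arrays of number 2, in place of -0.077. With 1 array left out the medians lay between -0.18 and -0.0064 for complex III, -0.12 and -0.0097 for complex IV and -0.15 and 0.028 for ATP synthase. Under quantile normalization 26 members were negative in place of 30. For number 1, 1384 genes and 6 members were called. With no intensity filter, over 45037 probe sets in place of 19073, the counts were 720 and 3, a drop whose cause was not tested. Against number 2 alone 1930 genes and 11 members were called, and with the dimmest probe set 1639 and 10. With 1 array left out, between 77 and 1755 genes and 0 and 10 members were called. The highest counts were without vehicle array 3 and the lowest without fluoxetine array 1. Without an array of number 1 the lone other one is assumed to vary like the rest. The complex III median was 0.24 with the dimmest probe set, 0.24 with the mean of a gene's probe sets and 0.24 with plain _at probe sets, in place of 0.13, and that of complex IV 0.32 with the dimmest, in place of 0.13. The cause was not tested. Centring moved the share of number 1 calls that were higher to 53.5%, in place of 46.3%.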
